A study of Mus musculus with 6 samples.

Results

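The genes described here are 10 genes of epithelial-to-mesenchymal transition (EMT), chosen by name: the transcription factor genes Snai1, Snai2, Twist1, Zeb1 and Zeb2, the cadherin genes Cdh1, Cdh2, Cdh3 and Cdh11, and the epithelial adhesion gene Epcam. Each was found in 1 row of a table of 36699 gene rows, of which the authors tested 18114, including 9 of the 10 genes. RNA was sequenced on day 3 from embryoid bodies, suspended clusters in which mouse embryonic stem (ES) cells begin to differentiate. All libraries came from A2Lox.cre ES cells with a Flag-Lef1 transgene under doxycycline control, kept in serum on fibroblast feeders of the FVB strain that were stripped away before aggregation. In 3 libraries (plus_Dox, numbered 1, 2 and 3) doxycycline was given for the last 24 h to induce Flag-Lef1, and 3 libraries (minus_Dox, numbered 1, 3 and 4) had none. The comparison asks which genes respond to induced Lef1. No libraries of doxycycline-treated cells without the transgene were analysed here, so an effect of doxycycline cannot be told apart from one of Lef1.

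Lef1 is a transcription factor that recruits beta-catenin to the targets of Wnt signalling. In an epithelium, E-cadherin (Cdh1) on neighbouring cells binds to itself and is tied to the actin skeleton through catenins, and Epcam adds a further surface adhesion molecule. During gastrulation, epiblast cells leave the epithelium at the primitive streak by EMT: factors such as Snai1 bind E-box sequences and repress Cdh1, and the emerging mesoderm takes on N-cadherin (Cdh2). Beta-catenin is shared between cadherin junctions and the Lef1/Tcf transcription complex.

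The authors' deposited table gives each gene a single FPKM value for plus_Dox and for minus_Dox (sequenced fragments per length of transcript and per total of the library), computed over the 3 libraries of the group, so the values carry no spread. Sequencing depth per library is unknown. The standard error (SE) was obtained by dividing a log2 fold by the deposited statistic, and a gene was counted as changed at a q-value (p adjusted over all tested rows) of at most 0.05. The labels leave unsaid whether each library had its own culture, so the spread behind these tests may be technical. In bulk RNA, more expressing cells and more RNA per cell cannot be told apart. The induction was visible in Lef1, which had 51.0 FPKM in plus_Dox and 7.56 FPKM in minus_Dox in the authors' deposited table. The ES cell genes Pou5f1 and Nanog were well above 20 FPKM in both groups.

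The promoter windows of the genes that passed the test, Snai1 and Twist1, and of Epcam, which did not, are printed here to show which E-box and Tcf/Lef motif letters they hold. They cover the 250 bases before the transcription start, taken from RefSeq on build GRCm38.p6, a later build than the mm9 of the expression table. Capitals mark the E-box CAGGTG, to which Snai and Zeb proteins bind, and the Tcf/Lef core, either CTTTGA or else CTTTGT. Both strands were searched, so a capital run can also be the reverse complement.
Snai1 (chr2:167537945-167538194, plus strand): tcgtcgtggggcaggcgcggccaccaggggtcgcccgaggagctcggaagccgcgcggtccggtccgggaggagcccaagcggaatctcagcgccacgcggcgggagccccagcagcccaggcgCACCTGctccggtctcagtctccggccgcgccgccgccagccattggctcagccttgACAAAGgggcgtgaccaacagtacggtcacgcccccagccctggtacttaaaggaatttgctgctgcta
Twist1 (chr12:33957421-33957670, plus strand): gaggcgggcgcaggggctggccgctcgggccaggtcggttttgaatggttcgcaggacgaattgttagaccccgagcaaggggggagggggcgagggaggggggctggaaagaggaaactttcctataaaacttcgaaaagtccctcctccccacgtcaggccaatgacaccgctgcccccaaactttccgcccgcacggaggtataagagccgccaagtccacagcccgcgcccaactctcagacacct
Epcam (chr17:87635729-87635978, plus strand): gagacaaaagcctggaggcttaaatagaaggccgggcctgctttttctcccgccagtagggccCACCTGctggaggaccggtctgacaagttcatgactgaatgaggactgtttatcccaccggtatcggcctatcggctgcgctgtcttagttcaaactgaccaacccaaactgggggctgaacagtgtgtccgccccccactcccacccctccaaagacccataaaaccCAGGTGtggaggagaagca
The Snai1 window held 1 E-box, beginning 126 bases before the start, and 1 CTTTGT, beginning 69 bases before it. No motif of either kind was found in the Twist1 window, and the Epcam window held 2 E-boxes, 187 and 19 bases before the start. For scale, 17.2% of 32851 RefSeq windows of the same length held CAGGTG and 27.6% held a Tcf/Lef core. Of the 4 Zeb2 windows in RefSeq, some of which overlap, 1 held a CTTTGT, 62 bases before its start, and none held the E-box. Windows were matched for only 4 genes of the set, the printed ones and Zeb2, so none is described for Cdh1. The motifs do not overlap each other in these windows, and a match is a description of the letters and not of binding.

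As deposited, Snai1 and Twist1 rose on induction and no gene of the set fell. Both calls depended on the scale: after removal of a trend on transcript GC content and length, neither passed (log2 folds of 0.30 and 0.17, q = 1.0 for both) and Zeb2 did, and Twist1 also missed the threshold after subtraction of the table's median (q = 0.13). Of the 9 tested genes 2 passed, both higher in plus_Dox, against a background of 12.2% of all tested rows called in either direction and 8.98% called higher. Those called lower made up 3.22% of all rows. A stricter or looser rule gave 1 gene at q 0.01 (6.67% of all rows), 3 genes at q 0.1 (16.3%, with Zeb2 added), 0 genes when a 2-fold change was also asked for (2.71%), 2 of 5 genes with at least 1 FPKM (18.6%) and 0 of 3 genes with at least 5 FPKM (22.3%). The 5 FPKM rule left out Snai1 and Twist1 themselves. As deposited, with 1 call fewer the members' share would lie below the 12.2% of the whole table. The median log2 fold over the 9 genes was 0.35, and 0.20 over all tested rows with a finite fold. Among the EMT factors 4 of 5 had higher values in plus_Dox, while the cadherins and Epcam ranged from slightly lower to moderately higher. Most tested rows were also higher in plus_Dox: only 34.95% had a fold below that of Cdh1, whose log2 fold was 0.0001.

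Snai1, the zinc finger repressor needed for the gastrulation EMT in mouse, had 2.13 FPKM in plus_Dox and 1.11 FPKM in minus_Dox in the authors' deposited table. The authors' deposited table puts the rise at 1.92-fold, with bounds of 1.35 and 2.73 at 95% confidence (log2 0.94 ± 0.26 SE, q = 0.0050). Its row lies on chromosome 2 from 167363694 to 167368314 in mm9. Twist1, a basic helix-loop-helix factor of mesoderm and neural crest, had 2.12 FPKM in plus_Dox and 1.21 FPKM in minus_Dox in the authors' deposited table. It rose 1.74-fold, with bounds of 1.23 and 2.48 (log2 0.80 ± 0.26 SE, q = 0.021, from the authors' deposited table), for the row on chromosome 12 from 34642535 to 34644682 in mm9. Both genes thus stood near 1 FPKM without induction and near 2 FPKM with it, below the middle of all tested rows in both groups (percentiles 42.6 and 42.5 in plus_Dox, 35.9 and 37.0 in minus_Dox). The rise of each was below 2-fold as a point value.

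Zeb2, a zinc finger and homeodomain repressor of Cdh1, had 0.932 FPKM in plus_Dox and 0.498 FPKM in minus_Dox in the authors' deposited table. Its fold of 1.87 was close to that of Snai1, but with an SE of 0.345 in log2 units it missed the threshold (q = 0.064 in the authors' deposited table). With that SE a fold of at least 1.93 would have been needed to pass. Zeb1, the related repressor, was near the bottom of the tested range with 0.182 FPKM in plus_Dox and 0.120 FPKM in minus_Dox in the authors' deposited table (1.51-fold, interval 0.502 to 4.55, q = 0.78). The Zeb1 row also names Zeb1.1 and spans 284244 bases, against 183608 for the gene in GENCODE, so other transcripts may be included. Snai2 (Slug), which in mouse is not needed for gastrulation, was the lowest of the set in plus_Dox at 0.0787 FPKM, against 0.122 FPKM in minus_Dox in the authors' deposited table (log2 -0.63 ± 0.57 SE, q = 0.60). For Snai2 only a change of 2.98-fold or more would have passed, and for Zeb1 one of 4.67-fold or more, so smaller changes in these 2 genes were not detectable.

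**Figure D1:**
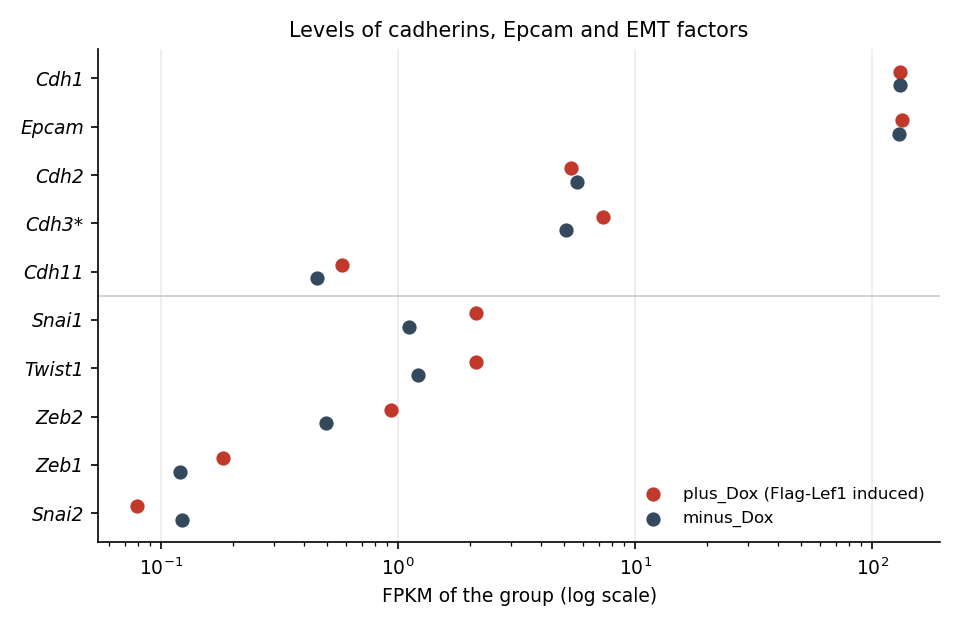
FPKM of each group on a log axis, with plus_Dox above minus_Dox for each gene and cadherins and Epcam above the line; each point is the authors' single value over 3 libraries, so no error bars can be drawn, and the asterisk marks Cdh3, which the authors' test could not be run on. Cdh1 and Epcam sit near 131 FPKM in both groups, while the EMT factors lie between 0.0787 and 2.13 FPKM.

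The epithelial adhesion genes had nearly equal FPKM with and without Lef1 induction, and neither passed the test. Cdh1, E-cadherin, had 131.1 FPKM in plus_Dox and 131.1 FPKM in minus_Dox in the authors' deposited table, a ratio of 1.00 with an interval of 0.767 to 1.30. Epcam, a surface adhesion glycoprotein of epithelia and ES cells, had 132.9 FPKM in plus_Dox and 130.3 FPKM in minus_Dox in the authors' deposited table, a ratio of 1.02 with an interval of 0.821 to 1.27. Both were above 95% of tested rows in each group. As deposited, the intervals leave room for changes of up to about 1.3-fold, so equality is not shown. A fall of Cdh1 below 0.767 of its uninduced level lies outside its interval on that scale only. With the same SE, its log2 fold was -0.20 after subtraction of the median and -0.09 after trend removal, so its lower bound is lower there. Cdh1 lies on chromosome 8 from 109127250 to 109194146 and Epcam on chromosome 17 from 88035318 to 88050446 (mm9).

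N-cadherin did not pass either. Cdh2 had 5.35 FPKM in plus_Dox and 5.70 FPKM in minus_Dox in the authors' deposited table (0.938-fold, interval 0.720 to 1.22, q = 0.90), for its row on chromosome 18. The FPKM of Cdh1 was 24.5 times that of Cdh2 in plus_Dox and 23.0 times in minus_Dox. The log2 fold of Cdh2 minus that of Cdh1 was -0.09, with a 95% interval of -0.63 to 0.45 when the implied SEs are taken as independent. E-cadherin made up 91.2% of the summed FPKM of the type I cadherins Cdh1, Cdh2 and Cdh3 in plus_Dox and 92.4% in minus_Dox.

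Cdh3, P-cadherin, which lies on chromosome 8 at 109034790 to 109080808 in mm9, with 1 other gene row in the 46441 bases between it and Cdh1, is marked as failed in the authors' deposited table, which gives it no test. Its deposited values were 7.30 FPKM in plus_Dox and 5.08 FPKM in minus_Dox in the authors' deposited table. The ratio of 1.44 therefore has no error, and the listed fold of 0 for this row is a placeholder. Cdh11, a type II cadherin of mesenchymal cells, had 0.578 FPKM in plus_Dox and 0.453 FPKM in minus_Dox in the authors' deposited table (1.28-fold, interval 0.886 to 1.84, q = 0.49). Its row lies on chromosome 8 from 105156894 to 105309011 in mm9. Except for Zeb1, every row spanned the length of its gene in GENCODE to within 1%. Rows of other genes overlapped those of Zeb1, Zeb2, Cdh2 and Cdh11, each with at most 0.242 FPKM, and the sources used here do not say how shared reads were divided.

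From high to low, the order in plus_Dox was Epcam, Cdh1, Cdh3, Cdh2, Snai1, Twist1, Zeb2, Cdh11, Zeb1 and Snai2. In minus_Dox the neighbours Epcam and Cdh1, Cdh3 and Cdh2, Snai1 and Twist1, and Zeb1 and Snai2 stood in the opposite order. With 1 value per group these neighbours cannot be ranked beyond error. Within the families, the fold of Snai1 exceeded that of Snai2 by 1.57 log2 units (95% interval 0.34 to 2.81), the 1 of 5 pairs with an interval that did not include 0. The FPKM of Snai1 was 27.1 times that of Snai2 in plus_Dox and 9.10 times in minus_Dox. Zeb2 exceeded Zeb1 by 0.31 log2 units (-1.42 to 2.04), Epcam exceeded Cdh1 by 0.03 (-0.47 to 0.52) and Cdh11 exceeded Cdh2 by 0.44 (-0.21 to 1.09). A sixth pair, Cdh3 and Cdh1, has no interval.

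Which EMT factor passed depended on how the groups were put on a common scale. Tested rows with at least 1 FPKM had a median log2 fold of 0.20, and fold changes followed transcript composition: across 11868 genes, which are not independent replicates, Spearman's coefficient with the GC content of the longest transcript was 0.65. Snai1 and Twist1 transcripts have 59.8% and 59.3% GC, and the Zeb2 transcript 40.6%. After subtraction of the median Snai1 still passed (log2 fold 0.74, q = 0.044) and Twist1 did not (0.60, q = 0.13), with 9.56% of all rows called, 3.47% higher and 6.1% lower. After removal of a smooth trend on GC content and transcript length, neither passed, with log2 folds of 0.30 for Snai1 and 0.17 for Twist1. On that scale Zeb2 did pass, at a log2 fold of 1.43 (q = 0.0036), where 2.19% of all rows were called, 1.28% higher and 0.912% lower. With a trend on GC alone, Zeb2 was again the 1 gene called, against 2.91% of all rows. Cdh1 (-0.09), Epcam (-0.33) and Cdh2 (-0.11) passed on none of these scales, and the excess of Snai1 over Snai2 shrank to 0.87 (-0.37 to 2.10). After trend removal the excess of Cdh11 over Cdh2, 0.67 (0.02 to 1.32), had an interval that did not include 0. The trend was fitted to rows with at least 1 FPKM, which neither Zeb2 nor Cdh11 reached. Error in the trend itself is left out of these intervals and q-values. Over the whole table, the split into higher and lower calls was 1626 and 584 as deposited, 618 and 1087 after subtraction of the median, and 218 and 155 after trend removal.

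**Figure D2:**
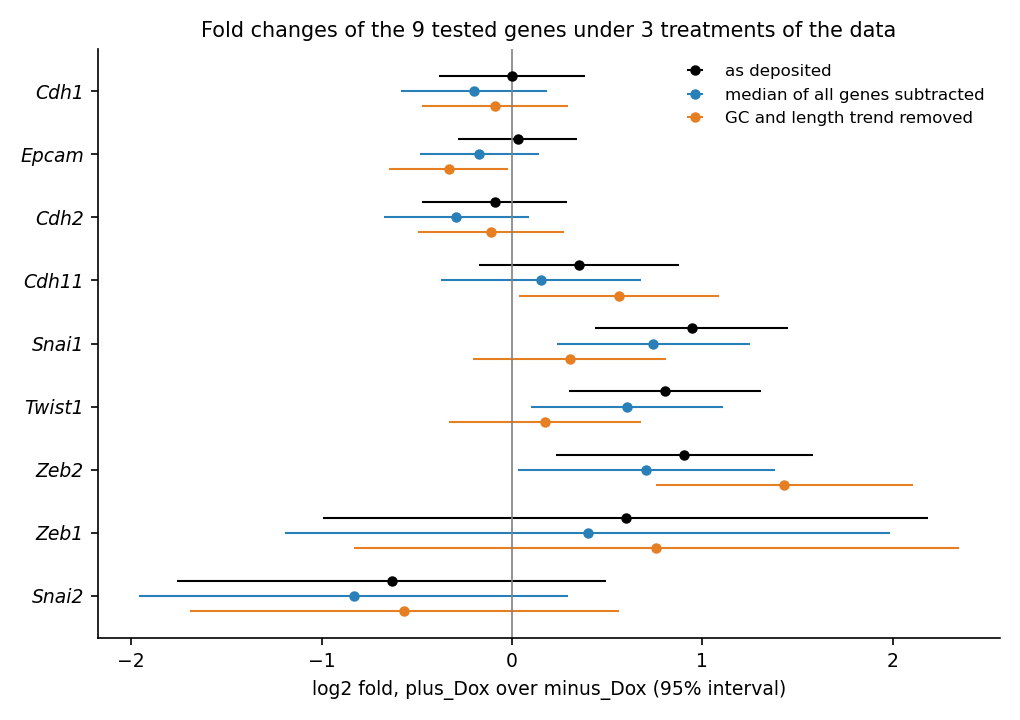
Log2 fold of plus_Dox over minus_Dox for the 9 tested genes as deposited (black), after subtraction of the median of all genes (blue) and after removal of the trend on GC content and length (orange), with 95% intervals from the authors' implied SE. Snai1 and Twist1 move towards 0 under trend removal, to 0.30 and 0.17, while Zeb2 moves away from it, to 1.43.

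**Figure D3:**
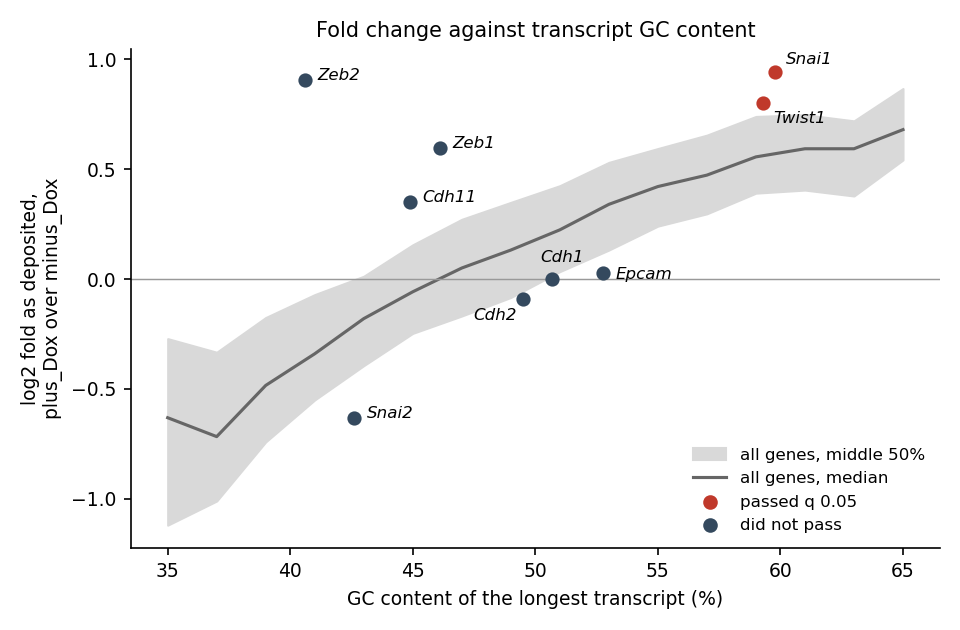
Deposited log2 fold of the 9 tested genes against the GC content of their longest transcript, over the median (line) and the middle 50% (band) of tested genes with at least 1 FPKM in bins of 2 percentage points. Snai1 and Twist1 lie above the band where the whole table is shifted up, and Zeb2, at 40.6% GC, lies well above a band whose median is negative.

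Other regulators of EMT and of epithelial identity moved in both directions. Among the 22 tested, 3 rose and 1 fell, beside 8.98% and 3.22% over all tested rows, and 18 did not pass. Their median log2 fold was 0.03. The rises were in Gsc, an organizer homeobox gene known to promote EMT (5.64 FPKM in plus_Dox and 1.47 FPKM in minus_Dox), Eomes, a T-box factor that mouse mesoderm needs for EMT (18.9 and 7.83 FPKM in the same order), and Tcf3, whose E47 product represses Cdh1 (88.2 and 59.4 FPKM), all in the authors' deposited table. The log2 folds of Gsc and Eomes, 1.94 and 1.28 in the authors' deposited table, exceeded those of the 5 EMT factors above. Both still passed after trend removal, but at 1.21 and 1.00 they were then below the 1.43 of Zeb2. Klf8, a Kruppel-like repressor, fell to 1.76 FPKM in plus_Dox, against 2.72 FPKM in minus_Dox (q = 0.046 in the authors' deposited table), and neither it nor Tcf3 passed after trend removal. The epithelial factors Grhl2 (7.80 FPKM in plus_Dox and 8.40 FPKM in minus_Dox), Ovol2 (6.24 and 5.30 FPKM) and Esrp1 (24.6 and 27.1 FPKM), named after their values were seen, did not pass in the authors' deposited table.

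Several signals known to act upstream of the gastrulation EMT had larger folds than the EMT factors. Of 18 tested genes 6 rose and 2 fell, beside 8.98% and 3.22% over all tested rows. Their median log2 fold of 0.22 was close to the 0.20 of the whole table. Like the other lists, this list was chosen with earlier results of these data known. In the authors' deposited table the growth factor gene Fgf8, which mouse cells need in order to move away from the streak, had 51.7 FPKM in plus_Dox and 4.06 FPKM in minus_Dox. T, the mesoderm factor Brachyury, had 4.76 FPKM in plus_Dox and 0.381 FPKM in minus_Dox in the authors' deposited table. The ligand genes Wnt3 (log2 fold 3.11, SE 0.26) and Nodal (2.85, SE 0.17) and the co-receptor gene Tdgf1 (2.61, SE 0.15) also rose, by the authors' deposited table. Axin2, a Wnt target that dampens the pathway, also rose, with 5.32 FPKM in plus_Dox and 1.11 FPKM in minus_Dox, while the ligand gene Fgf4 (5.58 and 9.95 FPKM in the same order) and the receptor gene Tgfbr1 (4.40 and 7.68 FPKM) fell in the authors' deposited table; these 3 were named after their values were seen. After trend removal the 6 rises and Fgf4 still passed and Tgfbr1 did not (log2 fold -0.37, q = 0.49). On that scale 1.28% of all rows were called higher and 0.912% lower. The log2 fold of Snai1, 0.94, is set beside 3.67 for Fgf8 and 3.64 for T in the authors' deposited table.

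Junction partners of the cadherins did not pass. None of 16 tested catenins and cadherin-bound proteins was called at q 0.05, beside 12.2% of all tested rows, and their median log2 fold was 0.05. At an unadjusted p of 0.05, 1 of them, the nectin gene Pvrl2, passed the authors' test. Ctnnb1 (beta-catenin) had 278.6 FPKM in plus_Dox and 292.6 FPKM in minus_Dox, and Ctnna1 (alpha-catenin) 98.3 FPKM in plus_Dox and 92.2 FPKM in minus_Dox, in the authors' deposited table. Among 12 tested further cadherins 1 was called, beside the same 12.2%. Cdh9, a type II cadherin, fell to 0.898 FPKM in plus_Dox, against 1.47 FPKM in minus_Dox (log2 -0.71 ± 0.25 SE, q = 0.039, from the authors' deposited table), and lost the call after trend removal. Of 7 tested protocadherins, 2 passed at levels below 0.4 FPKM, beside 12.2% of all tested rows. Both were named after their values were seen. Pcdh8, a protocadherin of paraxial mesoderm, rose (0.361 FPKM in plus_Dox and 0.131 FPKM in minus_Dox) and Pcdh17 fell (0.00998 and 0.0737 FPKM in the same order) in the authors' deposited table. Once the trend was removed, Pcdh17 still passed (q = 0.0036) and Pcdh8 did not (q = 0.061).

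Desmosome and polarity genes gave 1 rise and 1 fall in 18, where 8.98% of all tested rows rose and 3.22% fell. Crb3, an apical polarity protein gene, had 78.4 FPKM in plus_Dox and 48.2 FPKM in minus_Dox, and the desmosomal cadherin gene Dsc2 had 2.44 FPKM in plus_Dox and 3.95 FPKM in minus_Dox, in the authors' deposited table. Of 16 genes for proteases, their inhibitors and turnover factors of E-cadherin and Epcam, 3 rose and 1 fell, beside the same shares of all rows. The fall was in Adam10, which encodes the main sheddase of E-cadherin (4.07 FPKM in plus_Dox and 7.29 FPKM in minus_Dox, q = 0.00046 in the authors' deposited table). The rises were in Psenen, a gamma-secretase subunit, and in the membrane protease genes Mmp14 and St14, with log2 folds from 0.50 to 0.60 in the authors' deposited table. None of the 6 calls in these 2 lists passed after trend removal, and of the 4 rises none passed after subtraction of the median. After that subtraction the desmosome and polarity list held 3 falls, in Dsc2 and in Cd24a and Mal2, where 6.1% of all rows were called lower. The last 2 were named after their values were seen, Cd24a with 158.3 FPKM in plus_Dox and 198.0 FPKM in minus_Dox and Mal2 with 4.93 FPKM in plus_Dox and 6.84 FPKM in minus_Dox in the authors' deposited table.

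Among 20 tested mesenchymal and migration genes 4 rose and none fell, in a table where 8.98% of all rows rose and 3.22% fell, with a median log2 fold of 0.06. Vim, the intermediate filament gene of mesenchymal cells, had 76.4 FPKM in plus_Dox and 41.5 FPKM in minus_Dox (log2 0.88 ± 0.24 SE, q = 0.0058) in the authors' deposited table. S100a6 (log2 fold 0.67, SE 0.21) and the fibronectin receptor gene Itga5 (0.47, SE 0.16) rose in the authors' deposited table, as did Mmp9, named after its value was seen, which stayed below 0.4 FPKM. None of the 4 rises passed after subtraction of the median or after trend removal. Fibroblast markers, included because of the feeders, were summed to 25.2 FPKM in plus_Dox and 19.9 FPKM in minus_Dox over 11 genes. None of 10 tested ones was called. The largest part of the sum was Thy1, with 16.6 FPKM in plus_Dox and 11.9 FPKM in minus_Dox in the authors' deposited table (q = 0.055), while Dcn had 1.52 FPKM in plus_Dox and 2.12 FPKM in minus_Dox in the authors' deposited table (q = 0.25). Lum, which was not tested, was at or below 0.0266 FPKM in both groups. Extraembryonic endoderm markers, which with Epcam and Cdh1 are also epithelial, were summed to 197 FPKM in plus_Dox and 184 FPKM in minus_Dox. The largest part of both sums was Dab2, with 61.2 FPKM in plus_Dox and 78.8 FPKM in minus_Dox in the authors' deposited table. Its row is marked as failed and has no test. Of the 9 tested markers, 2 were called higher, Sox17 and Amn. After subtraction of the median Sox17 no longer passed (q = 0.24), and after trend removal neither did, while Gata6 was called lower (log2 fold -0.72, q = 0.025). Neural crest markers summed to 31.9 FPKM in plus_Dox and 25.6 FPKM in minus_Dox, with none of 6 tested ones called. Most of that sum was Foxd3, with 28.3 FPKM in plus_Dox and 22.8 FPKM in minus_Dox, followed by Ets1, with 2.75 FPKM in plus_Dox and 2.02 FPKM in minus_Dox, while Sox10 was below 0.2 FPKM in both groups, all in the authors' deposited table. Trophoblast markers summed to 390 FPKM in plus_Dox and 223 FPKM in minus_Dox, with 3 of 7 called higher, Eomes and the epithelial keratin genes Krt8 and Krt18. Most of both sums was Krt8 (173.4 FPKM in plus_Dox and 97.9 FPKM in minus_Dox) and Krt18 (194.4 and 114.6 FPKM in the same order) in the authors' deposited table. Krt7, Cdx2, Hand1 and Tfap2c were not called and Elf5 was not tested. All of these except Krt7 were below 0.4 FPKM in both groups. Of the 3 calls, Eomes alone still passed after trend removal (Krt8 at q = 0.66, Krt18 at q = 1.0). Epiblast and ES cell markers summed to 2680 FPKM in plus_Dox and 1260 FPKM in minus_Dox. The largest part of both sums was Pou5f1, which was not called, with 1510 FPKM in plus_Dox and 820.2 FPKM in minus_Dox (q = 0.055 in the authors' deposited table). The sums also include Dnmt3b, listed at 427.0 and 0 FPKM in the same order with a mark of too high depth and no test. Among 7 tested, Nanog, Tdgf1 and Utf1 were called higher and Sox2 lower. Utf1 no longer passed after subtraction of the median (q = 0.35) or trend removal (q = 0.79), while Nanog, Tdgf1 and Sox2 passed on both scales. Fgf5 was called lower after subtraction of the median (q = 0.024). The part of these other cell types in the rises of Snai1, Twist1 and Vim was not tested.

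**Figure D4:**
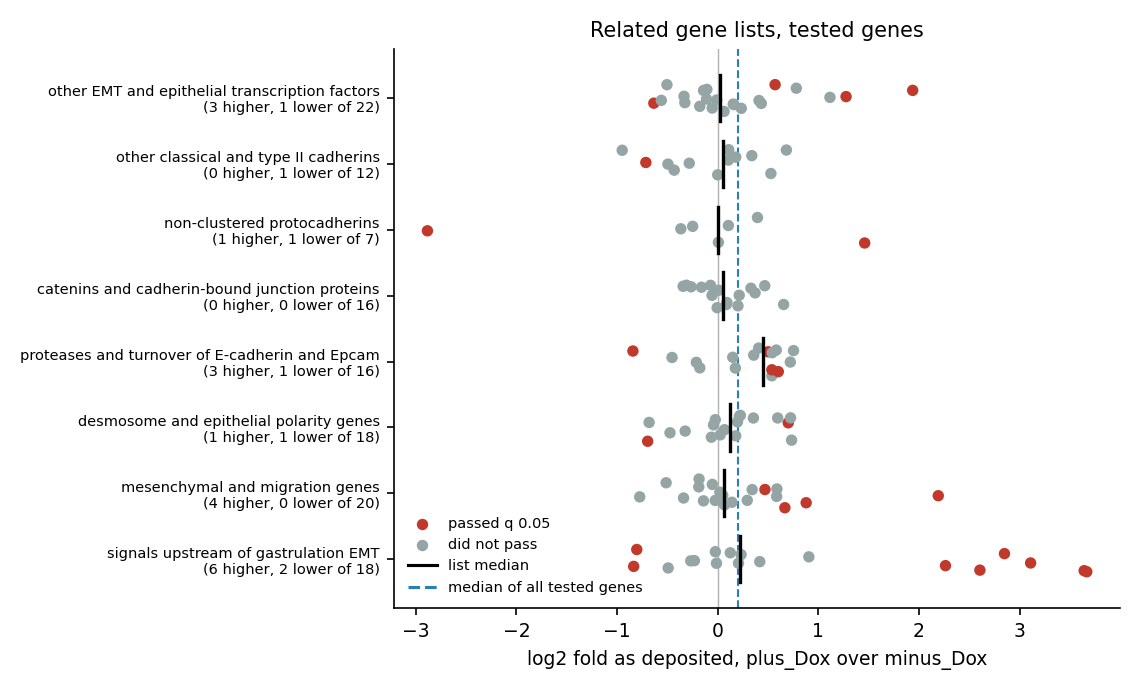
Deposited log2 folds of the tested genes in 8 related lists (red for genes that passed, grey for the others; the vertical spread within a list only separates points), with each list's median as a black bar and the median of all tested genes as a dashed line. Signals upstream of EMT reach log2 folds above 3, while the catenins and cadherin-bound proteins all lie between -0.4 and 0.7 and hold no call.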

How the data were processed

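Polyadenylated RNA was sequenced from 6 libraries, grouped by their titles. Per the submitters' processing notes, the tools were Cuffdiff, Cufflinks 2.0.2, Picard, Bowtie and TopHat2 2.0.8, in no stated order or role, with build mm9. Which gene models were used was not given in the sources used here. Per the file headers, the authors deposited 1 Cuffdiff table with an FPKM value per group, a log2 fold (a score column here, since infinite folds are coded as numbers), a test statistic (a score whose sign is opposite to the fold) and a p-value and q-value. It holds 0 columns of single libraries, so the authors' own test was used, at q 0.05. The members and lists were chosen with earlier results of these data known.

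Computed here with Python 3.11.15, numpy 2.4.6, scipy 1.17.1 and scikit-learn 1.9.0 were the SE (log2 fold divided by the statistic), 95% normal intervals, differences between genes and alternative scales. For the trend, log2 folds of tested rows with at least 1 FPKM were fitted by weighted least squares on cubic splines (6 knots) of GC content and log2 length of the longest basic GENCODE vM21 transcript. GC content and length were matched for 94.4% of tested rows, of which the 17000 with a finite fold were used, and the test was repeated with the same SE and Benjamini-Hochberg adjustment. The procedure was also run on simulated folds in which only rows with at least 1 FPKM were changed. Zeb2 lay below that level, so the simulation does not bear on its call. Members and Lef1 were named, and in each list up to 5 called genes with at least 1 FPKM and the largest fold, or the 2 highest genes where none was called.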

Additional observations from a re-analysis of the deposited data

How the results depend on the processing

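No paired analysis was possible because the deposited table holds 1 value per group and no single libraries; for the same reason no library could be left out. Depth per library is unknown, so genes below 0.2 FPKM (Snai2, Zeb1) are limited by implied SEs of 0.57 and 0.81.

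A filter of at least 5 FPKM leaves out Snai1 and Twist1, so the 0 members called there do not bear on them. At a q-value of 0.01 the count of members called fell to 1 (Snai1), and at least 2-fold left 0. It was 1 (Snai1) after subtraction of the median, 1 (Zeb2) after removal of the trend on GC and length, and 1 (Zeb2, log2 fold 1.25, q = 0.015) after removal of a trend on GC alone, an alternative chosen after seeing the data. All tested rows called went from 2210 (12.2%) to 1208 at q 0.01 (6.67%), 491 at 2-fold (2.71%), 373 after trend removal (2.19%) and 495 with GC alone (2.91%). Under the other rules they were 2961 at q 0.1 (16.3%), 2304 at 1 FPKM (18.6%), 1898 at 5 FPKM (22.3%) and 1705 after subtraction of the median (9.56%). The list counts that follow stand beside these shares of all rows. Calls among other regulators of EMT and of epithelial identity went from 4 to 2 at q 0.01, at 2-fold and after trend removal. After subtraction of the median 4 were called, 2 higher and 2 lower, with Tcf12 (lower) in place of Tcf3. The 1 further cadherin was 0 at q 0.01, at 2-fold and after trend removal, and Cdh9 lay below the filter of 5 FPKM. Protocadherin calls went from 2 to 1 after trend removal. Both called protocadherins lay below 1 FPKM, so the 0 calls at 1 and at 5 FPKM were fixed by the filter. Calls among catenins and cadherin-bound proteins went from 0 to 1 at q 0.1 and at 5 FPKM, in both cases the nectin gene Pvrl2. Protease calls went from 4 to 1 at q 0.01, 7 at q 0.1, 0 at 2-fold, 1 after subtraction of the median and 0 after trend removal. Desmosome and polarity calls went from 2 to 0 at q 0.01, 5 at q 0.1, 0 at 2-fold, 1 at 5 FPKM (Dsc2 lay below that filter) and 0 after trend removal. Mesenchymal calls went from 4 to 1 at q 0.01, at 2-fold, after subtraction of the median (Pdgfra, lower) and after trend removal (Rhob, lower). Calls among upstream signals stayed within 1.5 times their count under each alternative run.

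The sign of Cdh1 changed, without a call, to -0.20 after subtraction of the median, -0.088 after trend removal and -0.22 with GC alone. That of Epcam changed likewise to -0.17, -0.33 and -0.28, and that of Epcam minus Cdh1 to -0.24 after trend removal. A pseudocount of 1 lowered the log2 difference of Snai1 to 0.57, of Twist1 to 0.49 and of Zeb2 to 0.37. These changes follow from what each scale subtracts or adds. The median of 0.20 was taken off Cdh1 and Epcam alike, and the trend on GC and length took off 0.088 for Cdh1 and 0.36 for Epcam. What lay behind the shift of the median and the trend was not tested.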
